A study of Homo sapiens with 8 samples.

Results

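The endoplasmic reticulum (ER) folding and unfolded protein response genes are described here as a set of 38 symbols, taken by name from the 25192 gene symbols of the deposited tables. By function they are 10 genes of the BiP and Hsp90 system, 3 of the calnexin cycle, 7 protein disulfide isomerases, 2 translocon subunits, 9 genes of ER-associated degradation (ERAD), and 7 stress sensors and transcription factors. All 38 were found in every library.

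Messenger RNA was measured in 2 human colorectal cancer cell lines, HT29, grown in McCoy's 5A medium, and SW480, grown in RPMI1840 medium. Both lines are known to carry truncated APC. Each line was transfected for 36 h with control siRNA (siCon), directed against firefly luciferase, or with siRNA against PRDX2 (siPrdx2), the gene of the cytosolic peroxidase peroxiredoxin II. Every group had 2 libraries, and since no label says that they came from separate transfections, the p-values measure only the spread between these libraries, which may be technical.

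Secretory and membrane proteins enter the ER through the Sec61 translocon and fold there with the help of BiP, the lectins calnexin and calreticulin, and the protein disulfide isomerases. Proteins that fail to fold are drawn back to the cytosol and degraded by ERAD. When unfolded proteins accumulate, the membrane sensors IRE1 (ERN1), PERK (EIF2AK3) and ATF6 start the unfolded protein response: IRE1 splices the XBP1 message, ATF6 is cut to release a transcription factor, and PERK slows translation and favours ATF4. Spliced XBP1, cut ATF6, kinase activity and protein levels were not measured by these gene totals.

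XBP1 and cut ATF6 are known to act on the ER stress element. The 300 bases around each RefSeq start site (250 before, 50 after, GRCh38.p14) were searched on both strands for its letters, CCAAT and CCACG separated by 9 bases (ERSE), and for ERSE-II, ATTGG and CCACG separated by 1 base. Of the 35 genes with a promoter in the table, 7 (20%) held ERSE, against 0.0916% of 27305 genes, and 3 (8.57%) held ERSE-II, against 0.0696%. The shorter GACGTG was found for 10 (28.6%) against 9.34%, and the CCACG core alone, which is part of both elements, for 27 (77.1%) against 42.1%. A match is a description of the letters and not a bound site. The genes were chosen by name as ones of this response, so these shares are descriptive and no independent test. The windows below are shown because each holds 1 of the 2 elements, and their genes include ones that rose, fell or were not called in HT29 cells. They are written 5′ to 3′ on the gene's strand, with the letters of the element, or of its reverse complement, in capitals.
HSPA5 (chr9:125241381-125241419, minus): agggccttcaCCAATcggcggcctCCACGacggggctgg
CALR (chr19:12938374-12938412, plus): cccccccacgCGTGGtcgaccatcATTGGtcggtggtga
CANX (chr5:179698768-179698806, plus): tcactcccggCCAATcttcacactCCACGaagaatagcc
PDIA6 (chr2:10812843-10812881, minus): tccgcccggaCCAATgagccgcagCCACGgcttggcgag
XBP1 (chr22:28800593-28800631, minus): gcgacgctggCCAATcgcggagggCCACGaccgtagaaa
HERPUD1 (chr16:56932015-56932045, plus): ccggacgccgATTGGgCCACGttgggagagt
SDF2L1 (chr22:21642104-21642134, plus): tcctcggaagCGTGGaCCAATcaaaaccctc

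ERSE began 66 bases before the start site of HSPA5 and 52 bases before that of XBP1, and ERSE-II began 117 bases before that of HERPUD1. HSP90B1 held ERSE at 2 places, 194 and 89 bases before its start site, HYOU1 held ERSE-II at 2 places, 185 and 79 bases before its start site, and CRELD2 was the remaining gene with ERSE. In HT29 cells, 1 of the 7 genes with ERSE rose under PRDX2 knockdown (XBP1), 3 fell (HSP90B1, CALR, PDIA6) and 3 passed no threshold, where 7.76% of all genes tested rose and 9.82% fell. Of the 3 genes with ERSE-II, HERPUD1 and HYOU1 rose, and SDF2L1 passed no threshold.

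The total of expected counts ranged from 8857442 to 10164137 per library. Levels are given as CPM, counts scaled to library size with edgeR's TMM factors, on which 3 counts, the limit that a count of 0 allows, are 0.292 to 0.335 CPM, for counting error only. Levels of different genes are compared only in TPM, RSEM's measure per transcript length. PRDX2 was at 153 and 159 CPM in the siCon and 85.8 and 86.2 CPM in the siPrdx2 libraries of HT29 cells, and at 202 and 237 against 66.9 and 68 CPM in SW480 cells. Its log2 fold change was -0.87 (SE 0.05) in HT29 and -1.70 (SE 0.12) in SW480 cells. Of 10 colon epithelial markers, 6 were over 10 TPM in all libraries, while KRT20, LGALS4 and CDX1 were near 0 in SW480 cells. Of 10 markers of other cell types (immune and red blood cells, stroma, endothelium, liver and glia), 7 were under 1 TPM in all libraries, and PTPRC and HBB were at 0. The others were VWF, at up to 1.39 TPM, COL1A1, at 1.04 to 9.33 TPM, and CD68, a macrophage and lysosome marker, at 12.6 to 27.9 TPM. The counts cannot tell fewer expressing cells from less RNA per cell.

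The first comparison asked which of the ER genes changed in HT29 cells with siPrdx2. Of the 7 sensors and transcription factors, ERN1 rose by 1.41-fold and XBP1 by 1.21-fold, and WFS1 fell. The ERAD gene HERPUD1 rose by 1.38-fold and the BiP exchange factor HYOU1 by 1.1-fold. Of the 7 disulfide isomerases, 4 fell (P4HB, PDIA6, PDIA3, PDIA4), and the ER Hsp90 HSP90B1, the lectin calreticulin (CALR), SEC61B and DERL1 fell as well, each by less than WFS1. HSPA5 (BiP), the usual marker of the response, did not pass the threshold. By edgeR's quasi-likelihood test and Benjamini-Hochberg adjustment over 12961 genes at a threshold of 0.05, 4 of 37 tested genes rose, where 7.76% of all genes did, and 9 fell, where 9.82% of all genes did. DERL3, at 0.108 to 0.637 CPM, was below the count filter, and 24 genes were not called. The median log2 fold change of the 37 genes was -0.05, against 0.00 for all genes tested, and 24 of 37 were negative, against 50.1% of all genes. All 13 called genes had both siPrdx2 libraries outside the range of both siCon libraries. Such separation was found for 8 of the 37 genes upwards and 14 downwards, where it held for 29.9% and 27.4% of all genes.

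**Figure D1:**
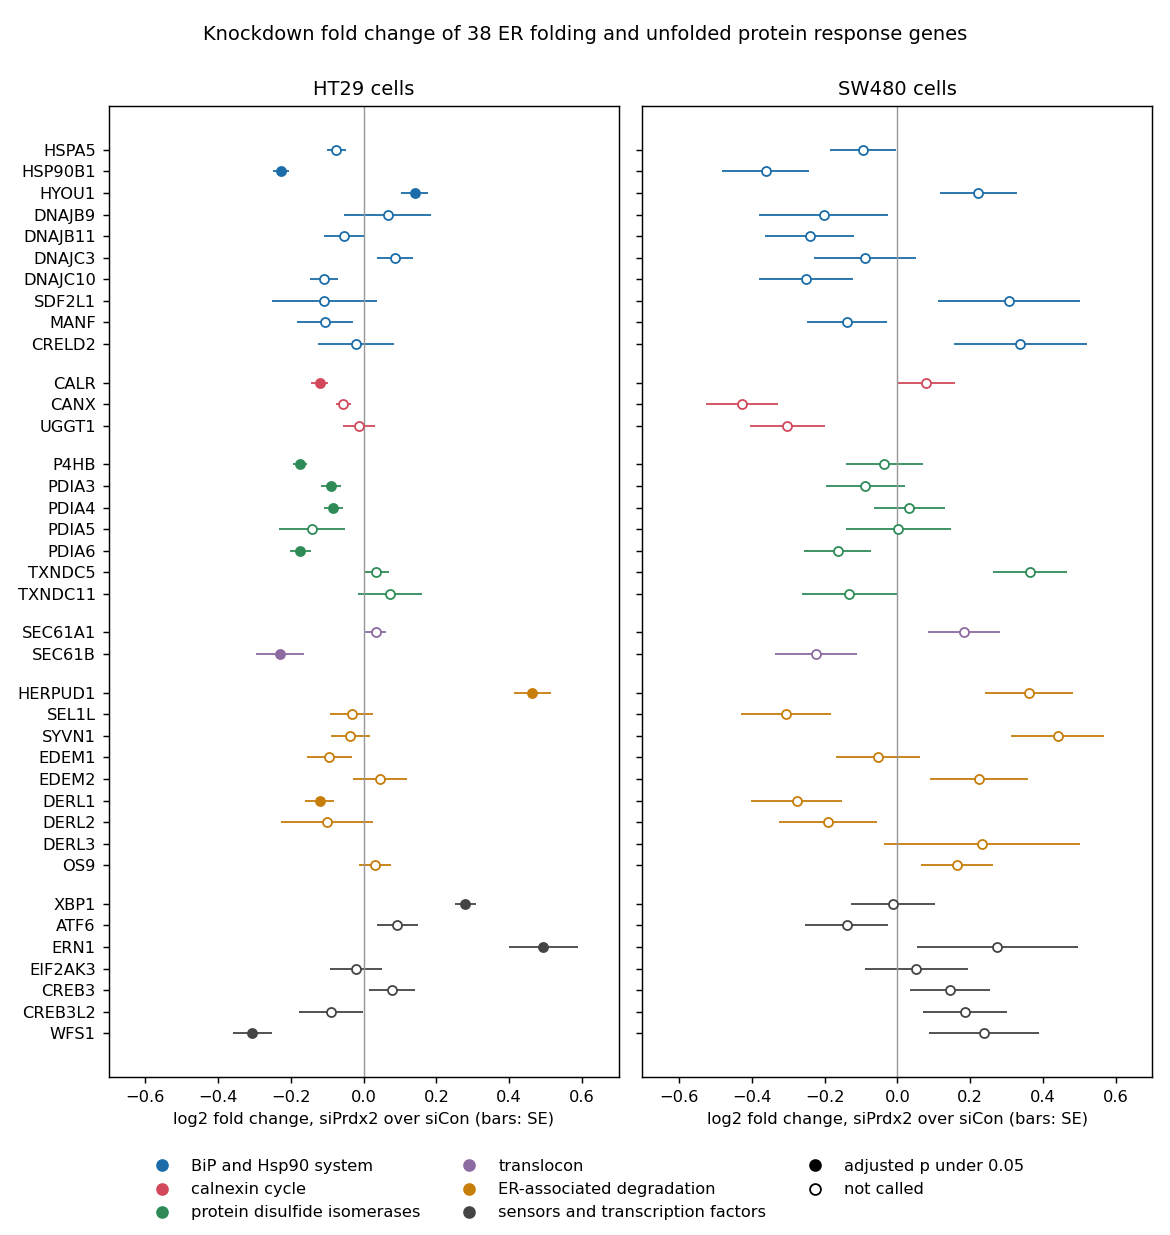
Log2 fold change (siPrdx2 over siCon, x axis) of the 38 genes (y axis, grouped by role) in HT29 cells (left) and SW480 cells (right), with bars for the SE and filled points for an edgeR adjusted p under 0.05. In HT29 cells, ERN1, HERPUD1, XBP1 and HYOU1 lie to the right and 9 genes to the left, and in SW480 cells no point is filled and the bars are longer.

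Among the sensors and transcription factors, ERN1, the IRE1 kinase and RNase (chromosome 17, 62116440 to 62208179 of GRCh37, minus strand), was at 19.7 and 19.9 CPM in the siCon and 27.2 and 29 CPM in the siPrdx2 libraries, a log2 fold change of 0.49 (SE 0.09, edgeR adjusted p = 0.00138). XBP1, whose message IRE1 splices (chromosome 22, 29190543 to 29196585, minus strand), was at 427 and 443 against 533 and 529 CPM, a log2 fold change of 0.28 (SE 0.03, edgeR adjusted p = 1.53e-06). In both genes the siPrdx2 libraries lay above the siCon libraries with no overlap. WFS1, an ER membrane protein that restrains ATF6 and handles calcium, went the other way, at 81.4 and 81.8 against 67.1 and 65.6 CPM, a log2 fold change of -0.30 (SE 0.05, edgeR adjusted p = 0.000735). The other sensors did not pass the test. ATF6 was at 92.2 and 101 against 99.5 and 108 CPM, with overlapping groups. EIF2AK3, the PERK kinase, was at 38.8 and 38.5 against 38.1 and 38.5 CPM, a log2 fold change of -0.02 (SE 0.07). CREB3 and CREB3L2, membrane-bound transcription factors of the OASIS family, had log2 fold changes of 0.08 and -0.09.

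In the BiP and Hsp90 system, HSPA5 (chromosome 9, 127997132 to 128003661, minus strand) was at 481 and 476 CPM in the siCon libraries and at 457 in both siPrdx2 libraries, a log2 fold change of -0.07 (SE 0.03, edgeR adjusted p = 0.064). Both siPrdx2 libraries were below both siCon libraries, and with a correction for transcript GC content HSPA5 was called lower, at -0.09 (edgeR adjusted p = 0.00486). HSP90B1 (chromosome 12, 104323885 to 104347709, plus strand), which folds receptors and integrins, was at 911 in both siCon libraries and at 799 and 767 CPM with siPrdx2, a log2 fold change of -0.23 (SE 0.02, edgeR adjusted p = 1.43e-06). HYOU1, which reloads BiP with ATP, was at 268 and 269 against 307 and 287 CPM, a log2 fold change of 0.14 (SE 0.04, edgeR adjusted p = 0.0135). Its higher level was not called when siPrdx2 replicate 1 was left out. The ER J-domain cochaperones of BiP, DNAJB9, DNAJB11, DNAJC3 and DNAJC10, had log2 fold changes between -0.11 and 0.09, and none was called. SDF2L1, a partner of DNAJB11, and MANF and CRELD2, secreted proteins induced by ER stress, had log2 fold changes of -0.11, -0.11 and -0.02 and were not called.

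The calnexin cycle holds glycoproteins until they fold. CALR was at 670 and 673 against 624 and 617 CPM, a log2 fold change of -0.12 (SE 0.02, edgeR adjusted p = 0.00148). CANX (calnexin) was at 979 and 961 against 949 and 927 CPM, and its log2 fold change of -0.06 did not pass the test (edgeR adjusted p = 0.0735). UGGT1, the glucosyltransferase that returns misfolded glycoproteins to the cycle, had -0.01.

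Of the disulfide isomerases, which form and rearrange disulfide bonds, P4HB (PDI itself) was at 1071 and 1069 against 951 and 956 CPM, a log2 fold change of -0.17 (SE 0.02, edgeR adjusted p = 4.93e-06). PDIA6 was at 420 and 422 against 378 and 372 CPM, a log2 fold change of -0.17 (SE 0.03, edgeR adjusted p = 0.000389). P4HB fell by 11.4% and PDIA6 by 11.3%, and in both genes the siCon libraries were closer to each other than to either siPrdx2 library. PDIA3, the partner of the lectins, was at 612 in both siCon libraries and at 594 and 562 CPM with siPrdx2, a log2 fold change of -0.09 (edgeR adjusted p = 0.0289). The tables hold a processed copy of PDIA3 as a separate entry (PDIA3P, 297 to 326 CPM in HT29 cells), so that reads may be split between them, and the sum of the entries had a log2 fold change of -0.10 (edgeR adjusted p = 0.00347). PDIA4 was at 538 and 554 against 516 and 520 CPM (log2 fold change -0.08, edgeR adjusted p = 0.0391). PDIA5, TXNDC5 and TXNDC11 were not called, at log2 fold changes of -0.14, 0.04 and 0.07. Since reads also pass between TXNDC5 and the readthrough entry BLOC1S5-TXNDC5, the sum is given: 273 and 277 against 285 and 282 CPM, a log2 fold change of 0.03.

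SEC61B, the small subunit of the translocon, was at 48.8 and 48.3 against 41.7 and 41.5 CPM, a log2 fold change of -0.23 (SE 0.07, edgeR adjusted p = 0.0232). The pore subunit SEC61A1 had a log2 fold change of 0.03 and was not called.

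In ERAD, HERPUD1, which gathers the retrotranslocation complex at the ER membrane (chromosome 16, 56966054 to 56978776, plus strand), was at 77.1 and 76.3 against 104 and 108 CPM, a log2 fold change of 0.46 (SE 0.05, edgeR adjusted p = 4.7e-06). DERL1, a channel protein of the same complex, was at 228 and 217 against 206 and 205 CPM, a log2 fold change of -0.12 (edgeR adjusted p = 0.0436). The ubiquitin ligase SYVN1 and its partner SEL1L had log2 fold changes of -0.04 and -0.03. The mannosidase-like EDEM1 and EDEM2, the lectin OS9 and the channel protein DERL2 lay between -0.10 and 0.04. Of the 8 ERAD genes tested, 1 rose, 1 fell and 6 were not called.

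**Figure D2:**
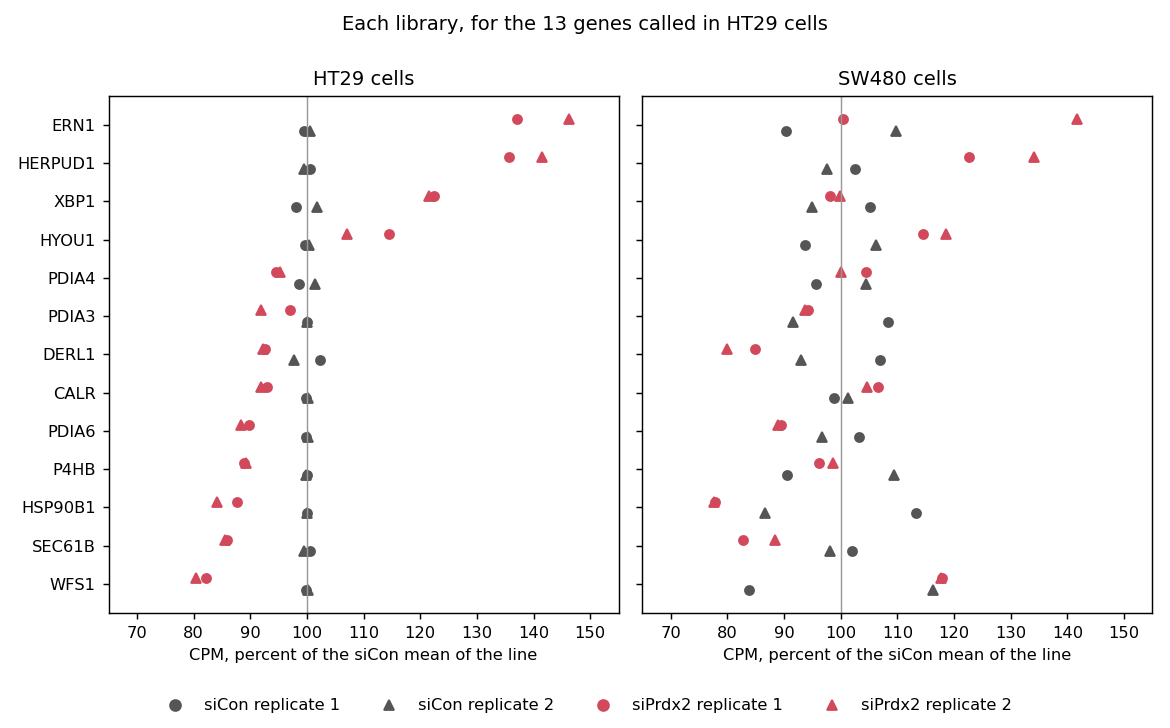
CPM of each library as a percent of the siCon mean of its line (x axis) for the 13 genes called in HT29 cells (y axis), with siCon in grey, siPrdx2 in red, circles for replicate 1 and triangles for replicate 2. In HT29 cells (left) the red points lie to one side of the grey points for every gene. In SW480 cells (right) the grey points are spread for many genes, and the groups overlap for P4HB, PDIA3, PDIA4, XBP1 and ERN1. For ERN1 the red points are spread more than the grey points.

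Most of the small HT29 calls depended on the fit that was used. With all 8 libraries in 1 fit, which shares the wider spread of SW480 cells, HERPUD1 alone was called (0.582% of all genes rose and 0.67% fell there). DESeq2 called 3 genes higher (ERN1, HERPUD1, XBP1) and 5 lower (CALR, HSP90B1, P4HB, PDIA6, WFS1), where it called 2.43% of all genes higher and 4.29% lower. With limma on log2(TPM + 1), 4 were called higher (9.66% of all genes) and 5 lower (4.23%). The median log2 fold change of all genes was 0.06 on that measure. The call of SEC61B was lost whichever library was left out, those of PDIA4 and DERL1 in 3 of the 4 cases each, and that of PDIA3 without siPrdx2 replicate 2, where 4 genes were called higher (5.65% of all genes) and 5 lower (7.52%). HERPUD1, ERN1, XBP1, HSP90B1, P4HB, PDIA6, CALR and WFS1 were called whichever library was left out.

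The same comparison in SW480 cells gave no called gene. By edgeR's quasi-likelihood test and Benjamini-Hochberg adjustment over 14112 genes, 0 of 38 genes rose and 0 fell, where 1.22% of all genes rose and 2.08% fell. At an unadjusted p under 0.05, 3 were higher and 4 lower, against 11.5% and 12.9% of all genes. DESeq2 called CANX alone, as lower, where it called 243 of 14112 genes higher and 443 lower. The median log2 fold change was -0.02, against 0.00 for all genes. Groups did not overlap for 13 genes upwards and 13 downwards, where that held for 29.6% and 29.1% of all genes.

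CANX was at 1621 and 1328 CPM in the siCon and 1104 and 1086 CPM in the siPrdx2 libraries of SW480 cells, a log2 fold change of -0.43 (SE 0.10, edgeR adjusted p = 0.0528). HSP90B1 was at 1216 and 929 against 835 and 832 CPM, a log2 fold change of -0.36 (SE 0.12, edgeR adjusted p = 0.118). For both genes the siPrdx2 libraries agreed closely and the siCon libraries did not. SYVN1 was at 49.4 and 58.9 against 72.5 and 74.4 CPM, a log2 fold change of 0.44 (SE 0.13, edgeR adjusted p = 0.0897). HERPUD1 was at 46.5 and 44.3 against 55.7 and 60.9 CPM, a log2 fold change of 0.36 (SE 0.12, edgeR adjusted p = 0.121). TXNDC5, an isomerase with thioredoxin domains, was at 224 and 241 against 298 and 301 CPM, a log2 fold change of 0.36 (edgeR adjusted p = 0.0834), with both siPrdx2 libraries above both siCon libraries. BLOC1S5-TXNDC5 was at 19.6 and 3.39 CPM with siCon and at 0 and 0.292 CPM with siPrdx2. The sum of the TXNDC5 entries was 243 and 245 against 298 and 301 CPM, a log2 fold change of 0.30 (edgeR adjusted p = 0.118). UGGT1 had a log2 fold change of -0.30 (edgeR adjusted p = 0.126).

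The sensors of SW480 cells were not called in this fit either. XBP1 was at 72 and 64.9 against 67.1 and 68.4 CPM, ATF6 at 92.7 and 83.8 against 81.9 and 78.2 CPM, and EIF2AK3 at 54.9 and 43.3 against 50.1 and 51.4 CPM. EIF2AK3 had a log2 fold change of 0.05, and of 0.23 without siCon replicate 1. With a GC correction it was called higher at 0.26 (SE 0.07, edgeR adjusted p = 0.0376), where 7.25% of all genes were. ERN1 was at 8.37 and 10.2 against 9.31 and 13.1 CPM, with overlapping groups. HSPA5 was at 1015 and 889 against 899 and 884 CPM, a log2 fold change of -0.09 (SE 0.09), and one of its control libraries stood near the siPrdx2 libraries. The genes called lower in HT29 cells had values of both signs here, from -0.36 for HSP90B1 to 0.24 for WFS1, the latter at 0.0166 without siCon replicate 1, 0.49 without siCon replicate 2 and 0.00782 with a GC correction.

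The siCon duplicates of SW480 cells stood apart from each other. The chi-square between their counts was 10.6 for each degree of freedom, against 1.42 to 2.08 in the other groups, and their log ratio followed transcript GC content (Spearman's rho = -0.79 over 11379 genes). The SW480 fold changes of the 38 genes also followed GC content (rho = 0.77, n = 38 genes that share the same 4 libraries), as did those of all genes (rho = 0.53), while those of HT29 cells did not (rho = -0.03, n = 37). Without siCon replicate 1, the rho over the 38 genes was 0.42, and 5 genes were called higher (11.4% of all genes) and 7 lower (13.1%). Without siCon replicate 2, rho was 0.87, and 11 were called higher (26%) and 17 lower (26.8%). With a GC correction, 4 were called higher (7.25%) and 3 lower (8.85%). HERPUD1, SYVN1 and TXNDC5 were called higher, and CANX and HSP90B1 lower, with the GC correction and in the fit of all 8 libraries. The fit of all 8 libraries shares the narrower spread of HT29 cells. None of these genes passed in the main fit, DESeq2 called CANX alone, and every fit reuses the same libraries. All of them kept their sign without siCon replicate 1, without siCon replicate 2 and with the GC correction. Their sizes moved, with CANX at a log2 fold change of -0.28 without siCon replicate 1, -0.57 without siCon replicate 2 and -0.23 with the GC correction. HSP90B1 was at -0.16, -0.55 and -0.20 in the same order, and SYVN1 at 0.32, 0.57 and 0.26. HERPUD1 lay between 0.32 and 0.41 and TXNDC5 between 0.29 and 0.42 in these 3 fits. P4HB took both signs, at a log2 fold change of -0.17 without siCon replicate 1 and 0.10 without siCon replicate 2. With the GC correction it was called lower, at -0.18 (edgeR adjusted p = 0.028). The part of the uneven control libraries in these values was not tested beyond these fits.

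**Figure D3:**
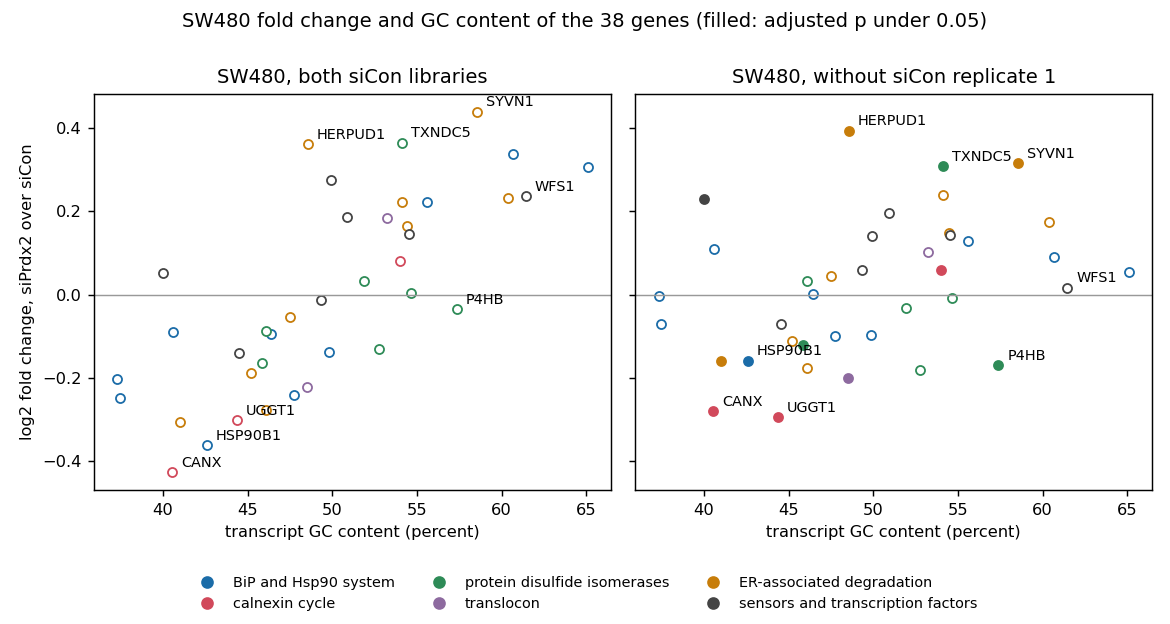
SW480 log2 fold change (siPrdx2 over siCon, y axis) against transcript GC content in percent (x axis) for the 38 genes, with both siCon libraries (left) and without siCon replicate 1 (right), coloured by role and filled where the edgeR adjusted p was under 0.05. The points rise with GC content on the left (rho = 0.77), less so on the right (rho = 0.42), and CANX lies low and SYVN1, TXNDC5 and HERPUD1 high in both.

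The test of the difference between the lines asked whether a gene responded differently in HT29 and SW480 cells. No gene of the set passed it: 0 of 38 were higher in HT29 cells, where 0.616% of 14772 genes were, and 0 were lower, where 0.508% were (edgeR's quasi-likelihood test, all 8 libraries). At an unadjusted p under 0.05, 3 were higher and 4 lower, against 10.2% and 8.96% of all genes. The rise of XBP1 in HT29 cells differed from its SW480 value by 0.29 (SE 0.10, edgeR adjusted p = 0.165) on the log2 scale. WFS1 differed by -0.54 (SE 0.18, edgeR adjusted p = 0.147), SYVN1 by -0.47 (SE 0.13, edgeR adjusted p = 0.107) and CANX by 0.37 (SE 0.11, edgeR adjusted p = 0.117). TXNDC5 differed by -0.33 (SE 0.09, edgeR adjusted p = 0.113), and its sum with BLOC1S5-TXNDC5 by -0.26 (SE 0.09, edgeR adjusted p = 0.156). HERPUD1 and ERN1 differed by 0.10 (SE 0.12) and 0.22 (SE 0.24). The SEs of these differences were as large as many of the HT29 changes. Without SW480 siCon replicate 1, 3 genes were called higher (5.04% of all genes) and 4 lower (4.28%), and without siCon replicate 2, 10 higher (18.3%) and 10 lower (17.4%). WFS1 differed by -0.32, -0.81 and -0.29 without siCon replicate 1, without siCon replicate 2 and with the GC correction. In the same order, SYVN1 differed by -0.35, -0.62 and -0.29, CANX by 0.23, 0.50 and 0.16, and XBP1 by 0.22, 0.35 and 0.25. TXNDC5 differed by -0.27, -0.40 and -0.26 in that order.

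The 2 lines were also compared in their siCon libraries, where line, growth medium and any difference in preparation or sequencing cannot be told apart. Of 38 genes, 9 were higher in HT29 cells, where 31.8% of 14346 genes were, and 14 were lower, where 35.7% were (edgeR's quasi-likelihood test). These siCon libraries are also the controls of the knockdown comparisons. XBP1 was at 427 and 443 CPM in HT29 and 72 and 64.9 CPM in SW480 cells, a log2 difference of 2.67 (SE 0.11, edgeR adjusted p = 1.76e-07), the largest among the genes higher in HT29 cells. ERN1 was at 19.7 and 19.9 against 8.37 and 10.2 CPM, a log2 difference of 1.09 (SE 0.18, edgeR adjusted p = 0.000645). DERL1 was 3.6-fold higher in HT29 cells, and HERPUD1, EDEM2 and SYVN1 were 1.69-, 1.43- and 1.41-fold higher.

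Of the 10 genes of the BiP and Hsp90 system, 3 were lower in HT29 cells (HSPA5, MANF, DNAJB11), none was higher and 7 were not called. HSPA5 was at 481 and 476 against 1015 and 889 CPM, a log2 difference of -0.99 (SE 0.10, edgeR adjusted p = 2.68e-05). MANF and DNAJB11 differed by -1.19 and -0.88, and the ERAD genes DERL2, SEL1L and EDEM1 by -1.18, -0.95 and -0.71. Other called genes lower in HT29 cells were SEC61B (-0.68), CANX (-0.61), CREB3L2 (-0.59), CALR (-0.57), CREB3 (-0.51), OS9 (-0.38) and PDIA6 (-0.27). DERL3, at 0.637 and 0.108 against 2.57 and 2.77 CPM, had a log2 difference of -2.80 (SE 0.53, edgeR adjusted p = 0.00152). It was -4.44 without HT29 siCon replicate 1 and -2.02 without replicate 2, and DERL3 was below the count filter when either SW480 library was left out. The isomerases were split, since PDIA3, P4HB and PDIA4 were higher in HT29 cells by 0.67, 0.59 and 0.49. ATF6, EIF2AK3, HSP90B1, HYOU1 and TXNDC5 were among the 15 genes not called. With the GC correction, which called 5146 of 13954 genes higher and 5710 lower, some of these were called. DNAJC3 (0.30), TXNDC11 (0.29), ATF6 (0.23) and TXNDC5 (0.17) were higher in HT29 cells there. SDF2L1 (-0.74), WFS1 (-0.59), CRELD2 (-0.37), EIF2AK3 (-0.22) and HYOU1 (-0.20) were lower. PDIA6, SYVN1, EDEM2, OS9 and CREB3 were no longer called when either siCon library of HT29 cells was left out, and neither were PDIA4 and CREB3L2 without replicate 2.

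Per transcript length, the most abundant of the 38 in HT29 siCon libraries were P4HB at 875 TPM (SD 0.2, n = 2), CALR at 746, HSP90B1 at 669 and XBP1 at 508 TPM. In SW480 siCon libraries they were CALR at 1206 TPM (SD 15.0, n = 2), HSP90B1 at 863 (SD 166), CANX at 680 (SD 97.6) and P4HB at 636 TPM (SD 82.1). Neighbours among the last 3 of these did not differ beyond their spread, whereas the 4 levels in HT29 cells did. XBP1 ranked 4 of 38 in HT29 and 18 of 38 in SW480 cells, where its level was 87.6 TPM (SD 6.8), and HSPA5 ranked 9 and 5. DERL3 was the lowest in both lines, at 0.3 and 2.2 TPM.

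**Figure D4:**
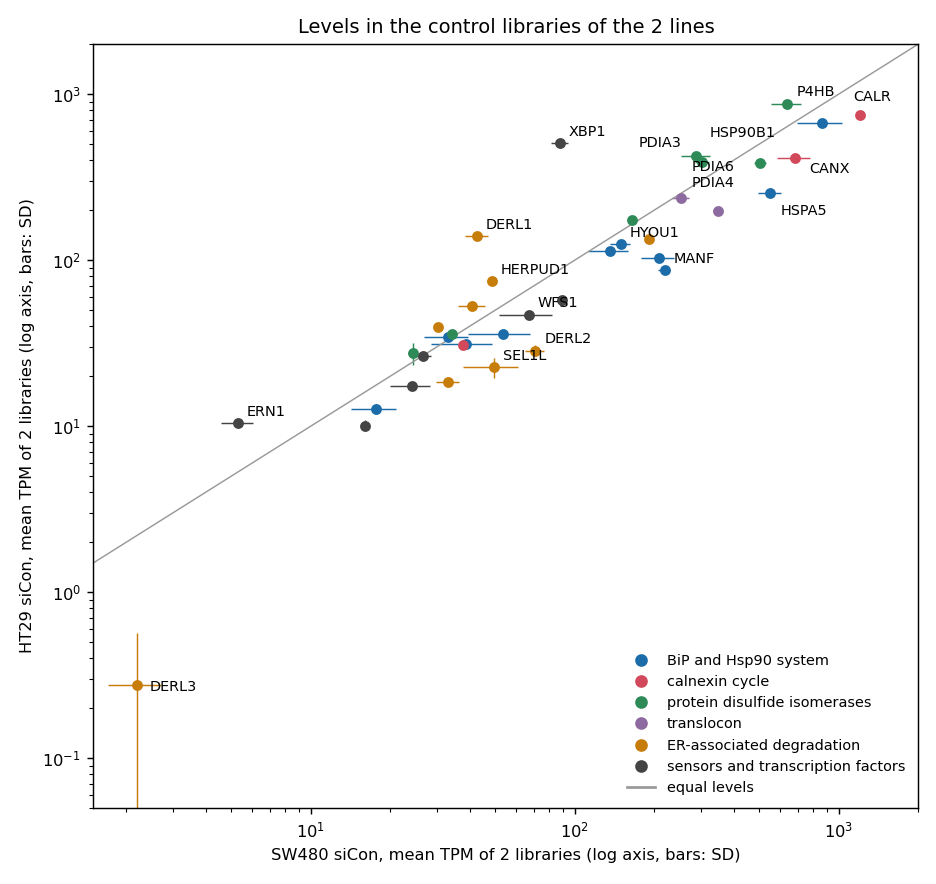
Mean TPM of the 38 genes in the siCon libraries of HT29 cells (y axis) and SW480 cells (x axis), both on log axes, with bars for the SD of 2 libraries and a line of equal levels. XBP1 (508 against 87.6 TPM) and DERL1 (140 against 42.5 TPM) lie farthest above the line, and HSPA5, MANF, DERL2 and DERL3 lie below it.

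The wider pathway was read from 8 lists of further ER and stress genes. The lists were chosen with earlier results of these data known, so their shares are descriptive and no independent test. In HT29 cells, 23 of the 151 tested rose (15.2%) and 19 fell (12.6%), where 7.76% and 9.82% of all genes did. Of the 23 that rose, 14 were in the PERK and ATF4 branch, and each other list held 0 to 3. In that branch, 14 of 17 genes rose and 1 fell, and the median log2 fold change was 0.43. ATF3, a stress transcription factor, rose by 0.93 (SE 0.06), ASNS, asparagine synthetase, by 0.80 (SE 0.04), and CHAC1, which degrades glutathione, by 0.69 (SE 0.05), each with an edgeR adjusted p of 5.36e-08 or less. The partners of ATF6 and IRE1 held 2 of 18 genes higher (TRAF2 0.22, ATF6B 0.15) and none lower. The lists of protein entry and exit held mostly falls among their calls. In signal recognition, translocation and signal peptidase, 5 of 23 fell and 1 rose, led by the signal peptidase subunit SPCS3 at -0.47 and the translocon subunit SEC61G at -0.36. In ER export, 6 of 19 fell and 1 rose, led by the coat protein SEC23A at -0.32. Of the 14 genes of ER oxidation, 2 rose and 2 fell, among them ERO1L, the oxidase that recharges PDI, at -0.23. The ERAD list had 3 of 26 higher, such as the ubiquitin-conjugating UBE2J2 at 0.27, and 2 lower, the glycan list 2 of 16 lower and none higher, and the cochaperone list 1 of 18 lower (FKBP9, -0.23) and none higher.

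In SW480 cells, 3 of 151 of these genes rose and 4 fell (1.99% and 2.65%), where 1.22% and 2.08% of all genes did. The 3 that rose were of the PERK and ATF4 branch, CEBPB at a log2 fold change of 0.73 (SE 0.13), DDIT3 (CHOP), a transcription factor of prolonged ER stress, at 0.73 (SE 0.14), and ASNS at 0.61 (SE 0.12), with edgeR adjusted p-values of 0.0279, 0.03 and 0.0352. Their HT29 values were 0.17, 0.52 and 0.80, and all were called there. The median SW480 log2 fold change of the 16 genes tested in that branch was 0.16, and 13 were not called. SPCS3, ERO1L, SEC61G and MBTPS2, the protease that completes the cutting of ATF6, fell by 0.95, 0.75, 0.57 and 0.58 on the log2 scale, with edgeR adjusted p-values between 0.0171 and 0.0486. The uneven siCon libraries entered these values. SPCS3 was at 158 and 116 CPM in the siCon and 67.3 and 73.9 CPM in the siPrdx2 libraries, and ERO1L at 148 and 100.2 against 72.9 and 74.1 CPM. In fits chosen after seeing the data, the log2 fold change without siCon replicate 1, without siCon replicate 2 and with the GC correction was -0.72, -1.16 and -0.66 for SPCS3, -0.45, -1.01 and -0.61 for ERO1L, -0.45, -0.69 and -0.42 for SEC61G, and -0.53, -0.63 and -0.34 for MBTPS2. For CEBPB it was 0.62, 0.84 and 0.40, for DDIT3 0.83, 0.62 and 0.73, and for ASNS 0.76, 0.47 and 0.74. All 7 genes kept the sign of the main fit in these 3 fits, which reuse the libraries by which they were picked. SPCS3, ERO1L and SEC61G were also called lower in HT29 cells. Of the 153 further genes tested for a difference between the lines, 2 were called higher in HT29 cells (1.31%) and 0 lower. Of all genes, 0.616% and 0.508% were. Both were of the PERK and ATF4 branch. DDIT4 had log2 fold changes of 0.60 in HT29 and -0.22 in SW480 cells, differing by 0.82 (SE 0.11, edgeR adjusted p = 0.00722). VLDLR had 0.43 and -0.62, differing by 1.05 (SE 0.20, edgeR adjusted p = 0.035). Those SW480 values rest on the same uneven siCon libraries.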

How the data were processed

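Messenger RNA of 8 libraries was sequenced (TruSeq RNA v2, which does not keep strand). The authors used MapSplice (hg19) for alignment and deposited the expected counts and TPM values that RSEM gave 25192 refGene symbols. Library totals were 8857442 to 10164137 expected counts. The expected counts were rounded and tested with edgeR 4.0.16 (glmQLFit and glmQLFTest, TMM, Benjamini-Hochberg adjustment) where a gene had 10 or more counts in 2 or more libraries of the fit. Fits within a line used its 4 libraries, and the difference between lines used all 8. SE is the log2 fold change divided by the root of the F statistic. Alternatives were DESeq2 1.42.0, limma 3.58.1 on TPM (log2, pseudocount 1 or 0.1), RLE factors, unfiltered counts, 1 fit of all 8 libraries, the replicate number as a block, a loess GC correction (span 0.5, genes with a GC value, 92.4% of symbols), leaving out each library, and TXNDC5 summed with BLOC1S5-TXNDC5. The sum of PDIA3 with PDIA3P, and the fits of further-list genes without either SW480 siCon library or with the GC correction, were chosen after seeing the data. The scripts were tested on simulated data.

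The 38 genes and the further lists were chosen with earlier results of these data known. A gene of the set was tested where it passed the count filter (DERL3 did not in HT29 cells). Those past the threshold in a knockdown fit, with HSPA5, XBP1, ATF6, ERN1 and EIF2AK3, are given by library, and in each further list the genes named are among the 3 largest called changes at a mean of at least 5 CPM. Gene positions come from GENCODE on GRCh37, the assembly of hg19, and promoters from RefSeq. Protein sequences were not used here.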

Additional observations from a re-analysis of the deposited data

Results flagged for a closer look

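PRDX2 itself, the gene targeted by the siRNA, fell less in HT29 than in SW480 cells. The knockdown effect in HT29 cells minus that in SW480 cells was 0.84 on the log2 scale (SE 0.12, edgeR adjusted p = 0.0128, all 8 libraries), and each line's siPrdx2 libraries lay below its siCon libraries. Groups of 2 are too small for a check for single outlying libraries.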

How the results depend on the processing

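In HT29 cells, where 4 genes were called higher and 9 lower, DESeq2 called 5 lower, limma called 5 lower with either pseudocount, and the fit of all 8 libraries called 1 higher and 0 lower. Leaving out 1 library gave 3 to 4 higher and 5 to 8 lower. In SW480 cells, where 0 were called, DESeq2 called 0 higher and 1 lower, the fit of all 8 libraries 3 and 3, the GC correction 4 and 3, and leaving out 1 library 0 to 11 higher and 0 to 17 lower. The difference between the lines gave 1 higher and 2 lower with the GC correction, and 0 to 10 in each direction with 1 library left out. A fit with 1 library left in a group assumes that the lone library varies like the others. RLE factors, no filter and the summed TXNDC5 or PDIA3 entries moved no count by over 1.5 times, nor did any alternative for the control lines. The causes were not tested.

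Some signs turned. Over the 38 genes and these alternatives, the called values among them were P4HB in SW480 cells without siCon replicate 2 (0.10) and SEC61A1 between the control lines without SW480 siCon replicate 1 (-0.13, against 0.03 with all libraries). EIF2AK3 in HT29 cells was 0.0407 and 0.0427 on the log2 scale with limma at pseudocounts of 1 and 0.1, where the median of all genes was 0.0594 and 0.0639. In SW480 cells, limma gave 0.0763 and 0.0770 for XBP1, 0.0604 and 0.0605 for P4HB, and 0.00603 and 0.00607 for PDIA3. The median of all genes was 0.0849 and 0.0929 there. The GC correction gave 0.0169 for XBP1 and 0.0110 for PDIA3 in SW480 cells. Over the libraries left out in turn, the SW480 values ran from -0.19 to 0.000966 for HSPA5, -0.0893 to 0.0585 for XBP1, -0.11 to 0.23 for EIF2AK3, -0.17 to 0.10 for P4HB, -0.21 to 0.0334 for PDIA3 and -0.0334 to 0.0945 for PDIA4, and the difference between lines for ERN1 from -0.00531 to 0.48.

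With 2 libraries a group, the replicate numbers pair the samples only by name (same-numbered deviations correlated at 0.116 in HT29 and 0.160 in SW480 cells). With the replicate block, 4 genes were called higher and 12 lower in HT29 cells, where 1307 and 1582 of 12961 genes were. In SW480 cells, 1 was called higher and 2 lower, where 858 and 869 of 14112 genes were. With the block and the GC correction together, SW480 cells had 4 higher and 3 lower, where 1406 and 1635 of 13722 genes were. XBP1 was at 0.0173 and PDIA3 at 0.0120 there. The difference between lines had 0 higher and 1 lower, where 508 and 467 of 14329 genes were.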
